A study of Mus musculus with 5 samples.

Results

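The genes described here are 7 that mark megakaryocytes and platelets: Pf4, Itga2b, Gp9, Gp1bb, Plek, Cavin2 and Vwf. They were taken by symbol from the 55450 genes counted, and all 7 were found once. Their level, their detection and their joint detection in single cells were measured in 5 droplet libraries (10x Genomics 3′ v3 chemistry, which counts unique molecular identifiers, UMIs, from the 3′ ends of polyA RNA) of sorted mouse bone marrow progenitors. GMP, the granulocyte-monocyte progenitor (negative for Sca-1, positive for CD34, high for CD16/32), had 3 libraries. CMP, the common myeloid progenitor (negative for Sca-1, positive for CD34, low for CD16/32), and LMPP, the lymphoid-primed multipotent progenitor (positive for Sca-1, CD34 and Flt3), had 1 library each. All cells came from wild-type Balb/C mice aged 8 to 12 weeks, were selected for c-Kit and were negative for a lineage cocktail that had no antibody to a platelet protein. The GMP libraries are called biological replicates, without a statement on whether they came from separate animals, so p-values measure the spread between these samples, and no spread is known for CMP or LMPP.

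After filtering, the GMP libraries held 8429, 9016 and 7334 cells, the CMP library 6880 and the LMPP library 7511. Median UMIs per cell were 10784, 12908.5 and 15197 in GMP, 10134.5 in CMP and 9318 in LMPP, and any pair of libraries shared between 13 and 33 cell barcodes. The gate genes followed the sort, with their levels taken over all deposited barcodes, before filtering. Fcgr3, which encodes part of CD16/32, stood at 40.9, 35.7 and 46.4 CPM (UMIs scaled to the library total) in GMP, 10.4 CPM in CMP and 2.80 CPM in LMPP. Ly6a, which encodes Sca-1, stood at 0.819, 0.744 and 1.04 CPM in GMP, 1.02 CPM in CMP and 17.6 CPM in LMPP. Flt3 was not absent from CMP, with 48.9 CPM against 129 CPM in LMPP, and Cd34 was present throughout. Shares of cells are given after each cell was thinned at random to 2000 UMIs, which left 8169, 8910 and 7257 GMP cells, 6833 CMP cells and 7451 LMPP cells. Intervals are exact 95% Clopper-Pearson intervals and cover counting error only.

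Megakaryocytes are the marrow cells that shed platelets. They arise from multipotent cells and from progenitors shared with red cells, through factors of the GATA and ETS families, and part of the stem cell compartment is known to carry platelet genes. Pf4 encodes platelet factor 4, a chemokine stored in platelet alpha granules, and Vwf the adhesive protein von Willebrand factor, stored with it and also made by endothelium. Itga2b encodes the alpha chain of the fibrinogen receptor (CD41), and Gp9 and Gp1bb encode subunits of the glycoprotein Ib-IX-V complex, the receptor for von Willebrand factor. Plek encodes pleckstrin, a substrate of protein kinase C in platelets and also in leukocytes. Cavin2 encodes a coat protein of caveolae that binds phosphatidylserine.

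In the GRCm38 build the genes lay at chr5:90772435-90773383 (Pf4, plus strand), chr11:102453297-102470122 (Itga2b, minus), chr6:87778072-87779768 (Gp9, plus), chr16:18620317-18622403 (Gp1bb, minus), chr11:16971206-17052381 (Plek, minus), chr1:51289126-51302960 (Cavin2, plus) and chr6:125546774-125686679 (Vwf, plus), by the GENCODE M21 annotation. Gp1bb lies within Sept5 on the same strand, so its UMIs may be divided between both genes and its counts are uncertain. Plek overlaps Gm12014 and Cnrip1 on the opposite strand. Promoters of 6 members were in the RefSeq table (GRCm38.p6), and that of Vwf was not. Because all 7 members had their highest level in CMP, the 250 bases before the start of Pf4 (chr5:90772185-90772434), of Gp9 (chr6:87777820-87778069) and of Cavin2 (chr1:51288876-51289125) are shown on the plus strand, the strand of all 3 genes, with capitals for GATAA, the core letters of a site for GATA factors, and for AGGAAG, those of a site for ETS factors, which reads as CTTCCT where it lies on the minus strand:
Pf4: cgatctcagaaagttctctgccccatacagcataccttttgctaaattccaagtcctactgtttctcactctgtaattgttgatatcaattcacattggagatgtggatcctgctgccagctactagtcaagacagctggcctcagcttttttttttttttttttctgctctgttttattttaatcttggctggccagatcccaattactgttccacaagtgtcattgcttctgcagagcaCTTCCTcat
Gp9: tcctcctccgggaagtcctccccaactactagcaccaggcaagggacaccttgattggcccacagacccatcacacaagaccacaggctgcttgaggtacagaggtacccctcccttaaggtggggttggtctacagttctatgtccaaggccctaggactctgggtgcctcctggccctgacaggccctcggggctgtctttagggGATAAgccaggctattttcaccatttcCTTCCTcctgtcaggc
Cavin2: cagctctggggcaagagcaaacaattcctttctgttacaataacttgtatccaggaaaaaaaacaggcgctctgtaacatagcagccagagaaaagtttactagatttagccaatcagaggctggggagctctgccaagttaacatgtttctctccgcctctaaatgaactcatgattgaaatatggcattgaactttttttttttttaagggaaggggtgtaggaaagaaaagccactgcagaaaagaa
In Pf4 the AGGAAG match lay on the minus strand and began 9 bases before the start. Gp9 had GATAA on the plus strand 43 bases before the start and AGGAAG on the minus strand 16 bases before it. Itga2b had AGGAAG on its own strand 125 and 43 bases before the start, Plek had GATAA on its own strand 196 bases before it, and neither motif, on either strand, occurred in these windows of Cavin2 and Gp1bb. Of 32851 promoters cut to the same length, 22.6% held GATAA, 29.5% held AGGAAG and 6.58% held both, so matches are common and say nothing here about binding. The 2 motifs did not overlap in these windows.

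All 7 members had their highest level in CMP. Pf4, the granule chemokine, stood at 16.9, 32.5 and 5.60 CPM in GMP replicates 1, 2 and 3, 415 CPM in CMP and 58.7 CPM in LMPP. Relative to the mean, its GMP libraries differed from each other more than those of any other member except Cavin2, with a mean of 18.3 ± 13.5 CPM (SD, n = 3). Vwf, the other granule protein, stood at 0.366, 0.552 and 0.233 CPM in GMP, 5.41 CPM in CMP and 1.86 CPM in LMPP. For both, GMP lay lowest and LMPP between GMP and CMP.

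Among the surface receptors the order of GMP and LMPP was not shared. Itga2b stood at 6.31, 6.46 and 3.97 CPM in GMP, 34.2 CPM in CMP and 6.59 CPM in LMPP, so that LMPP lay just above the highest GMP library and within the GMP mean and SD of 5.58 ± 1.40 CPM (n = 3). Gp9 stood at 1.07, 1.40 and 1.01 CPM in GMP, 17.8 CPM in CMP and 12.1 CPM in LMPP, with LMPP near CMP and far above every GMP library. Gp1bb had 21, 31 and 6 UMIs in GMP (0.213, 0.256 and 0.0519 CPM), 290 UMIs in CMP (3.57 CPM) and 20 UMIs in LMPP (0.237 CPM). Most of the UMIs of Gp1bb were thus in CMP, and its LMPP level lay within the GMP range.

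Of the 2 intracellular members, Plek stood at 11.3, 12.05 and 8.77 CPM in GMP, 67.6 CPM in CMP and 43.7 CPM in LMPP. Cavin2 stood at 0.894, 1.86 and 0.208 CPM in GMP, 21.2 CPM in CMP and 3.13 CPM in LMPP. Plek, like Gp9, was high in both CMP and LMPP, whereas Cavin2, like Pf4, was several-fold lower in LMPP than in CMP.

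**Figure D1:**
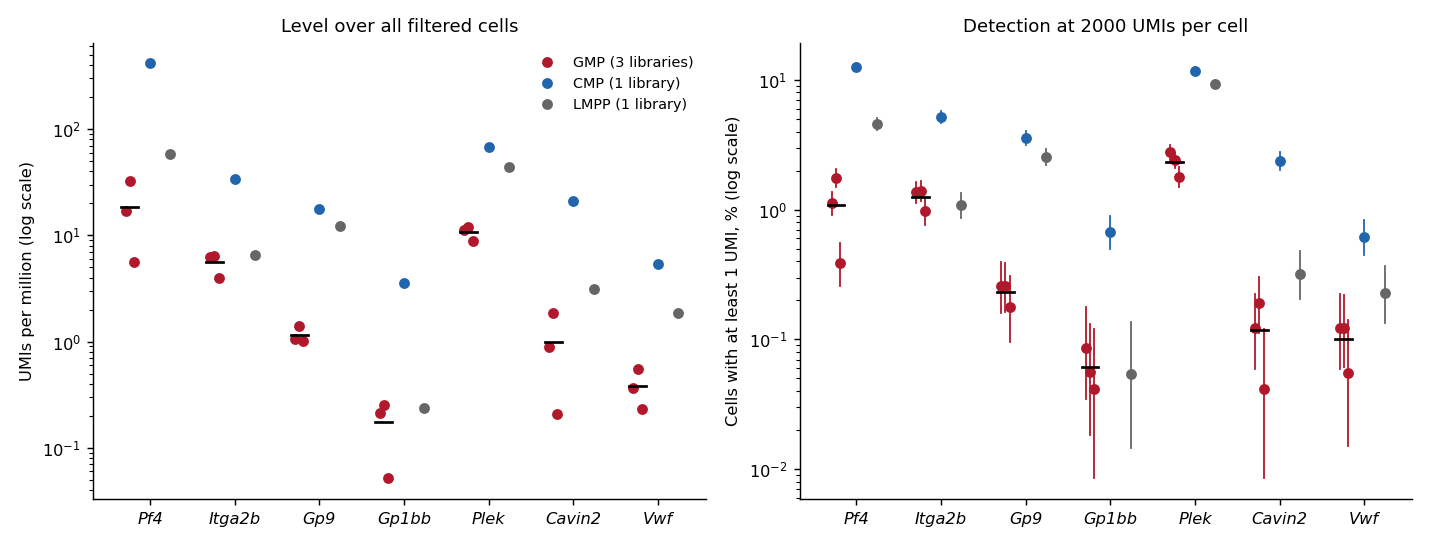
Level (CPM, left) and share of cells with at least 1 UMI after thinning to 2000 UMIs (%, right) of the 7 members, on log axes; points are libraries, with 3 for GMP, 1 for CMP and 1 for LMPP. The CMP point is the highest for every member, at 415 CPM for Pf4 against 5.60 to 32.5 CPM in GMP and 58.7 CPM in LMPP, and Itga2b and Gp1bb are the members whose LMPP point lies beside the GMP points.

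Against CMP, all 7 members were lower in GMP by edgeR's quasi-likelihood test at an adjusted p (Benjamini-Hochberg, over 19760 genes) under 0.05. In the same test 32.3% of all genes were called, 19.0% lower and 13.4% higher. The members' median change was -3.61 on the log2 scale, beside -0.04 for all genes. Pf4 fell by 4.19 ± 0.66 (log2, SE; edgeR adjusted p = 0.0028), Cavin2 by 4.08 ± 0.68 (0.00369), Gp1bb by 3.92 ± 0.51 (0.00118), Gp9 by 3.61 ± 0.20 (3.7e-05) and Vwf by 3.44 ± 0.36 (0.000465). The smallest changes were those of Plek, with a fall of 2.34 ± 0.18 (edgeR adjusted p = 0.000141), and of Itga2b, with a fall of 2.30 ± 0.25 (0.000573). Each member was called lower under all 12 alternative settings, including one that left out the few cells with at least 3 members, where Pf4 fell by 3.86 (edgeR adjusted p = 0.00567, within a range of 8.98e-75 to 0.0115 over the alternatives). The test had 2 residual degrees of freedom, all from GMP, and assumes that CMP varies like GMP. Scaling by total UMIs in place of TMM factors moved the split of all called genes to 1458 higher and 6032 lower, against 2642 higher and 3750 lower, and the median of all genes to -0.34.

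The other platelet genes of a list of 20 went with the members for the most part. Of 18 tested, 15 were lower in GMP than in CMP and 1 was higher, with a median change of -2.45. Gp5, a further subunit of the von Willebrand factor receptor, stood at 0.538, 0.742 and 0.1297 CPM in GMP and 20.2 CPM in CMP, a change of -5.06 (edgeR adjusted p = 0.00045). Tmem40 changed by only -1.05 (edgeR adjusted p = 0.000882). Of 10 regulators of the lineage, 8 were lower in GMP and none was higher, with a median of -2.33: the transcription factor gene Gfi1b changed by -4.44 (edgeR adjusted p = 5.06e-05), whereas Runx1, a factor of many blood lineages, had -0.26 (0.249). Erythroid genes were lower in GMP as well, 12 of the 13 tested in a list of 14, with a median of -3.97. The granulo-monocytic genes Mpo, Elane, Prtn3, Ctsg, Ms4a3 and Prss57 were all 6 higher in GMP, with a median of 3.67. Endothelial genes, since endothelium also makes Vwf, were lower in 3 of 4 tested from a list of 5, with a median of -1.90. Stem and multipotent genes were lower in 6 of 6 (median -3.39) and lymphoid genes in 6 of 7 (-3.41), while monocyte genes were higher in 5 of 5 (1.83) and eosinophil genes in 6 of 8 (5.92). The part of these other lineages in the members' change was not tested.

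Against LMPP, 3 of 7 members were lower in GMP and none was higher, where 57.1% of all genes were called, 31.4% lower and 25.6% higher, so the members' share was near that of all genes. The members' median change was -1.05 beside -0.09 for all genes. Gp9 fell by 2.75 ± 0.20 (edgeR adjusted p = 4.75e-05), Vwf by 1.61 ± 0.39 (0.00939) and Plek by 1.40 ± 0.19 (0.000667), and these 3 were called under all 12 alternatives. Pf4 had a change of -1.05 ± 0.69 (edgeR adjusted p = 0.219) and Cavin2 of -1.02 ± 0.75 (0.273). Both were called when GMP replicate 2, the library with the most of each, was left out, with -1.71 for Pf4 (edgeR adjusted p = 4.22e-11, in a range of 4.22e-11 to 0.518 over 12 alternatives) and -1.83 for Cavin2 (1.03e-08, in a range of 1.03e-08 to 0.611). Without replicate 3, the library with the least of each, Pf4 was also called, at -0.60 (edgeR adjusted p = 0.0346). Itga2b had 0.38 ± 0.29 (edgeR adjusted p = 0.285; 0.0246 without replicate 3, in a range of 0.0246 to 0.457) and Gp1bb 0.16 ± 0.66 (0.852). Both had a negative sign when scaled by total UMIs, a setting that moved the median of all genes to -0.69 and the split of called genes to 2162 higher and 10267 lower, against 5068 higher and 6208 lower.

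The comparison against LMPP uses the same GMP libraries as that against CMP. In it, 9 of 18 other platelet genes tested were lower in GMP and 2 were higher, with a median of -1.64. Mmrn1, which encodes the alpha granule protein multimerin 1, stood at 0.152, 0.256 and 0.173 CPM in GMP and 14.0 CPM in LMPP, where it was higher than in CMP (7.01 CPM). Of the 10 regulators 6 were lower in GMP, with a median of -0.88, among them Meis1 at -3.79 (edgeR adjusted p = 7.84e-06). Several lists for other cell types had larger median changes than the members. Stem and multipotent genes were lower in GMP in 6 of 6 (median -4.62), genes of maturing neutrophils in 6 of 6 (-4.41), lymphoid genes in 6 of 7 (-4.03) and erythroid genes in 12 of 13 (-3.58). Granulo-monocytic genes were higher in 6 of 6 (median 4.36), monocyte genes in 5 of 5 (3.81), and basophil and mast cell genes in 6 of 6 (3.58). Their part in the members' change was not tested.

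CMP and LMPP, with 1 library each, were compared without a test. Pf4 was 7.08-fold higher in CMP (exact Poisson interval 6.87 to 7.29), Itga2b 5.18-fold (4.73 to 5.69), Cavin2 6.78-fold (5.96 to 7.75), Vwf 2.91-fold (2.42 to 3.51) and Gp1bb 15.1-fold (9.59 to 25.1). Plek and Gp9 differed less, at 1.55-fold (1.48 to 1.61) and 1.46-fold (1.35 to 1.59). These intervals take UMIs as independent and cover neither the spread between cells nor that between libraries. In LMPP, for example, 1 cell held 565 of the 4957 Pf4 UMIs, so the intervals are too narrow. So 5 of 7 members were at least 2-fold higher in CMP, and none at least 2-fold lower, beside 4.76% and 23.9% of 20060 genes counted, and the members' median log2 ratio was 2.37 beside -0.34. Of 19 other platelet genes counted 5 were at least 2-fold higher in CMP, with a median of 0.36, and of 10 regulators 3, with a median of 0.29. Genes of other cell types were shifted as well: monocyte genes were at least 2-fold higher in CMP in 5 of 5 (median 1.71) and basophil and mast cell genes in 4 of 6 (1.88), while genes of maturing neutrophils were at least 2-fold lower in 6 of 6 (-6.22).

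Each of the 7 members was detected in a larger share of cells in CMP than in any other library. Pf4 was detected in 1.13%, 1.76% and 0.386% of GMP cells, 12.6% of CMP cells (11.8 to 13.4) and 4.60% of LMPP cells (4.14 to 5.10). Plek was detected in 2.78%, 2.41% and 1.79% of GMP cells, 11.8% of CMP cells and 9.37% of LMPP cells. Gp1bb and Vwf were detected in under 1% of cells in every library. At full depth, where deeper libraries detect more, Pf4 was found in 5.76% ± 3.41 of GMP cells (SD, n = 3), 41.4% of CMP cells and 17.5% of LMPP cells.

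Detection was also counted in cells with genes of other lineages, which are not expected to make most members. Plek, also made in leukocytes, may be an exception. Among 103 CMP cells with lymphoid genes (at least 2 UMIs of Ebf1, Il7r, Cd79a and Vpreb1, with a median of 8811 UMIs at full depth), Pf4 was detected in 9.71% (4.75 to 17.1), Plek in 6.80% (2.78 to 13.5), Itga2b and Gp9 in 2.91% each (0.605 to 8.28), and Gp1bb, Cavin2 and Vwf in 0, which allows up to 2.91%. The intervals of Pf4, Plek, Itga2b and Gp9 are wide and hold the shares of all CMP cells. Detection at 1 UMI of these genes thus did not set the 103 cells apart from CMP as a whole. Their levels were lower, at 34.8 CPM against 415 CPM in all CMP cells for Pf4 and 26.3 against 67.6 CPM for Plek. Itga2b stood at 3.76 against 34.2 CPM and Gp9 at 9.41 against 17.8 CPM. The part of free RNA in these UMIs was not tested. At least 2 members were detected in 1 of these 103 cells, 0.971% (0.0246 to 5.29), against 6.12% of all CMP cells. Among 114, 71 and 66 GMP cells rich in S100a8 and S100a9, genes of maturing neutrophils, Pf4 was detected in 0, 1 and 0 cells and Plek in 1, 1 and 0, and the other 5 members in none, which allows up to 2.63%, 4.23% and 4.55% of those cells.

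The UMIs of Pf4 were held by few cells. The 1% of cells with the most Pf4 held 80.3%, 80.5% and 79.0% of its UMIs in GMP, 60.5% in CMP and 70.0% in LMPP. For Plek these cells held 20.3%, 22.7% and 18.6% in GMP, 12.9% in CMP and 10.997% in LMPP, the lowest share of any member in every library, although this share also grows as a gene becomes rarer. A single cell reached 202, 438 and 190 UMIs of Pf4 in GMP, 914 in CMP and 565 in LMPP.

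Cells with several members were most common in CMP. At least 2 of the 7 were detected in 34, 39 and 13 GMP cells (0.416%, 0.438% and 0.179%, mean 0.344% ± 0.143, SD, n = 3), 418 CMP cells (6.12%, 5.56 to 6.71) and 103 LMPP cells (1.38%, 1.13 to 1.67). At least 3 were detected in 9, 15 and 3 GMP cells (0.110%, 0.168% and 0.0413%), 129 CMP cells (1.89%, 1.58 to 2.24) and 16 LMPP cells (0.215%, 0.123 to 0.348). The CMP intervals lay above those of the other libraries at both counts. The shares scale with depth, and without thinning at least 2 members were found in 2.80% ± 0.973 of GMP cells, 34.9% of CMP cells and 14.4% of LMPP cells. Doublets were called among 15%, 7.14% and 0% of GMP cells with at least 2 members, 6.90% of such CMP cells and 6.36% of such LMPP cells, beside 5.92% to 8.03% of all cells, and were removed.

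**Figure D2:**
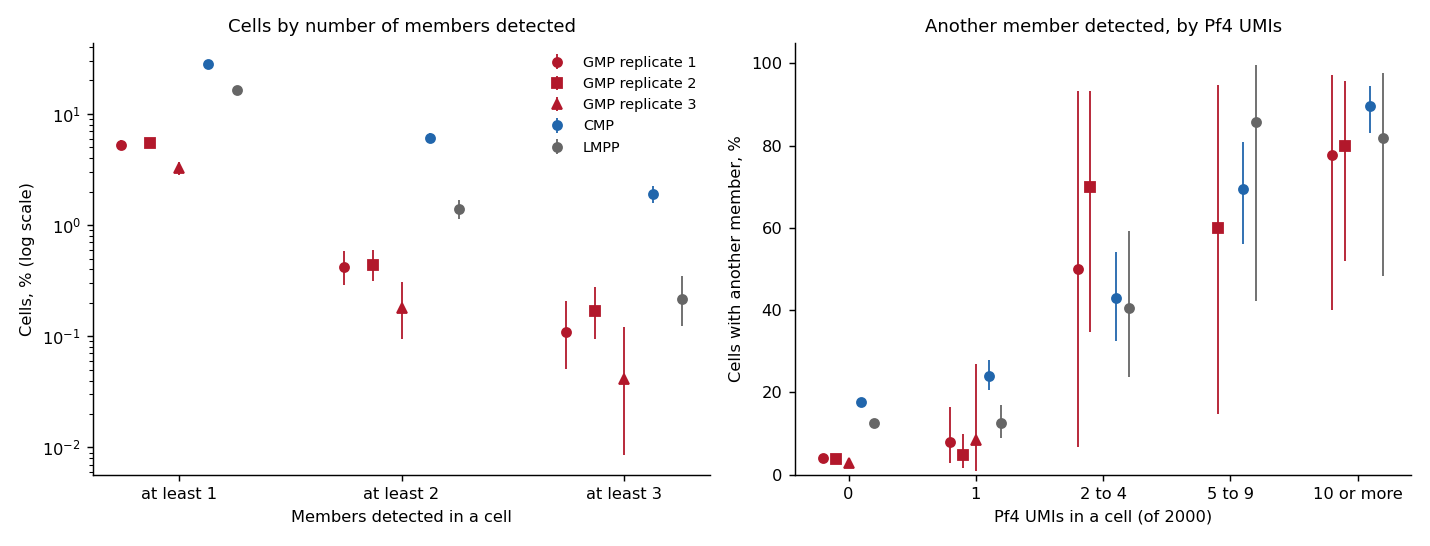
Left, share of cells (%, log axis) with at least 1, 2 or 3 of the 7 members detected after thinning to 2000 UMIs, per library; right, share of cells with a member other than Pf4 (%) by the number of Pf4 UMIs in the cell. Points are libraries and bars are exact 95% intervals; CMP lies highest on the left, with 6.12% of cells at 2 or more members, and on the right the share reaches 89.7% in CMP cells with 10 or more Pf4 UMIs.

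The members were detected in the same cells more often than they would be if independent. In CMP, at least 1 cell was expected to hold both genes for 20 of the 21 pairs. All 20 had more such cells than expected from their single shares, each with an interval of the odds ratio above 1. The last pair, Gp1bb and Vwf, had 3 CMP cells where 0.283 were expected. This pair and many pairs in the other libraries were too rare to read. Under 1 cell was expected for them, and any cell with both genes then lies above expectation. Pairs with at least 1 cell expected (a minimum set after the values were seen) numbered 9 in LMPP and 3, 3 and 1 in GMP. In LMPP all 9 were above expectation, 5 of them with an interval above 1. In GMP the pair of Itga2b and Plek in each library, and those of Pf4 with Itga2b and with Plek in replicates 1 and 2, were above expectation with an interval above 1. Cells of a library are not replicates, and depth beyond thinning, cell cycle and doublets are shared by both genes of a pair.

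Pairs with Plek had the lowest odds ratio in both CMP and LMPP. In CMP, Pf4 and Cavin2 were both detected in 103 cells where 20.5 were expected (log2 odds ratio 3.74), Pf4 and Vwf in 29 where 5.29 were expected (3.97), and Gp1bb and Cavin2 in 15 where 1.10 were expected (4.46, the highest in CMP). The receptor gene Itga2b was found with Pf4 in 108 CMP cells where 44.4 were expected (1.75). Plek was found with Pf4 in 172 CMP cells where 101 were expected (1.08) and with Itga2b in 57 where 41.5 were expected (0.58, the lowest in CMP). In LMPP, Pf4 and Cavin2 were both detected in 14 cells where 1.10 were expected (4.89), but Pf4 and Plek in 33 where 32.1 were expected (0.06, interval -0.46 to 0.59). Over the 3 GMP libraries combined, Pf4 and Plek were both detected in 29 cells where 6.85 were expected. Itga2b and Plek were both detected in 34 where 7.35 were expected. Pf4 and Cavin2 were both detected in 18 cells, but with 0.424 expected this pair is under the minimum.

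**Figure D3:**
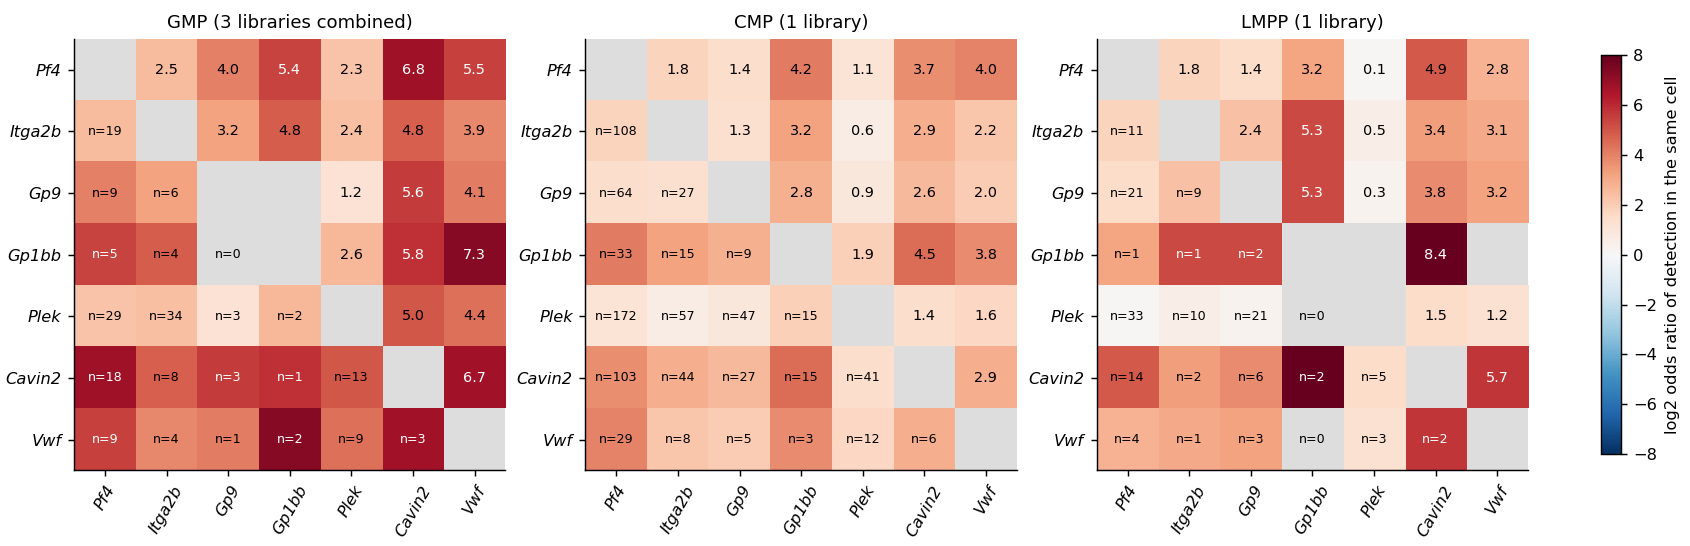
Log2 odds ratio of detection in the same cell for each of the 21 pairs of members, for the 3 GMP libraries combined, for CMP and for LMPP; numbers below the diagonal are cells with both genes, and pairs with no such cell are grey. In CMP every pair is above 0, between 0.58 (Itga2b and Plek) and 4.46 (Gp1bb and Cavin2), and in LMPP the pair of Pf4 and Plek stands at 0.06. Pairs with under 1 cell expected are drawn too, but are too rare to read.

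Cells were grouped by their Pf4 UMIs (a grouping chosen after the values were seen), and those with at least 5 are called Pf4-high. At least 5 of 2000 UMIs were Pf4 in 12, 20 and 4 GMP cells (0.147%, 0.224% and 0.0551%), 185 CMP cells (2.71%, 2.34 to 3.12) and 18 LMPP cells (0.242%, 0.143 to 0.382). These cells held 71.0%, 71.2% and 67.6% of all Pf4 UMIs in GMP, 84.3% in CMP and 61.4% in LMPP. Another member was detected in 75%, 75% and 100% of them in GMP, 83.2% in CMP and 83.3% in LMPP. The share of CMP cells with another member rose by steps over the bins, with no gap before the Pf4-high cells. It was 17.6%, 24.1%, 43.0%, 69.5% and 89.7% with 0, 1, 2 to 4, 5 to 9 and at least 10 Pf4 UMIs. In LMPP it was 12.5% with none, 12.6% with 1 and 40.6% with 2 to 4 Pf4 UMIs (32 cells). Of the CMP cells with at least 2 members, 154 of 418 (36.8%) were Pf4-high.

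In the CMP cells with at least 10 Pf4 UMIs (126 cells), each other member was detected more often than in CMP cells without Pf4. No single one was found in most of these cells. Plek was detected in 41.3% of them, Cavin2 in 40.5%, Itga2b in 34.1%, Gp9 in 29.4%, Vwf in 15.1% and Gp1bb in 11.9%, against 10.6%, 1.005%, 4.10%, 3.01%, 0.218% and 0.218% of CMP cells without Pf4. The regulator Zfpm1 was detected in 50% against 13.2% and the platelet receptor gene Treml1 in 26.2% against 1.56%. The erythroid gene Car1 was detected in 1.59% against 13.4%, and Mpo, the myeloperoxidase of granulocyte progenitors, in 38.1% against 73.5%.

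Genes most like the members over the 6880 CMP cells, by Pearson's r with the summed member level among 11124 genes, included Rap1b (0.436), Treml1 (0.424), Cd9 (0.417), Ehd3 (0.409), Tuba8 (0.377), Tmsb4x (0.348), Unc119 (0.343), Rab27b (0.332) and Zfpm1 (0.329). Rap1b encodes a small GTPase of platelets, Cd9 a tetraspanin and Rab27b a GTPase of granule release. Pf4, at 415 CPM in CMP beside 67.6 CPM for Plek, the next highest, makes up most of that sum. The list therefore need not hold for the other members. The cells share a library and differ in depth, so these are descriptions. In LMPP these genes had r between 0.041 (Tmsb4x) and 0.189 (Treml1), and in GMP Tmsb4x was negative, at -0.099, -0.090 and -0.093.

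The GMP cells with at least 2 members (34, 39 and 13 cells) were compared with all other GMP cells of the same library, with library as a block, to see which other genes they carry. The members chose the cells, so their own changes are no result, and 6 of them are among the genes called higher. Of 14501 genes, 10.7% were called by edgeR, 3.57% higher and 7.14% lower in the cells with at least 2 members (under scaling by total UMIs, 975 genes higher and 287 lower, against 517 higher and 1035 lower). All 10 regulators were higher, with a median log2 change of 2.40 beside -0.14 for all genes, and so were 11 of 13 other platelet genes, with a median of 4.18. Treml1 stood at 76.4, 94.7 and 76.6 CPM in the cells with at least 2 members, against 0.286, 0.390 and 0.0780 CPM in other GMP cells, a change of 7.80 ± 0.46 (edgeR adjusted p = 1.71e-60, and 1.66e-19 with a robust prior). Zfpm1, which encodes a partner of GATA factors, stood at 179, 239.5 and 272 CPM, against 5.04, 6.85 and 4.19 CPM in other GMP cells. Other genes with large changes upwards were Ehd3 (7.36), Gp5 (6.92), Samd14 (5.79), Slc14a1 (5.72), Gfi1b (4.80) and Serpina3g (4.41). The rule that named these genes required them to be higher in all 3 libraries.

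All 6 granulo-monocytic genes were lower in the same cells (5 with a robust prior), with a median of -1.89. Among genes lower in all 3 libraries, which the naming rule required, the largest changes downwards were in genes of granulocytes and in a few others. S100a8 changed by -3.18, S100a9 by -2.44, the granule protease gene Prtn3 by -2.14, Ly6c1 by -2.09, Ighm by -2.09, Pglyrp1 by -2.01, Cebpd by -2.003, Prss57 by -1.90 and Alas1 by -1.90. Elane, which encodes neutrophil elastase, changed by -2.13 (edgeR adjusted p = 1.82e-75) but had an adjusted p = 0.12 with a robust prior. Prtn3 remained abundant, at 2266, 3297 and 3319 CPM, against 10918, 9599.8 and 9993 CPM in other GMP cells. The 6 granulo-monocytic genes summed to 5850, 6863 and 6538 CPM in GMP cells with at least 3 members, against 36503, 32403 and 35564.5 CPM in GMP cells with none. In CMP the same sum was 555 CPM in cells with at least 3 members and 4258 CPM in cells with none. These genes were thus lower in member-rich cells of both populations, and higher in GMP than in CMP in either kind of cell.

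Erythroid, eosinophil, basophil and monocyte genes also differed in these GMP cells. Of 5 erythroid genes tested 4 were higher: Car2, a carbonic anhydrase gene, stood at 99.7, 78.0 and 68.1 CPM, against 6.83, 8.73 and 4.24 CPM in other GMP cells. Of 7 eosinophil genes tested 4 were higher and 1 with a robust prior. Prg2, the eosinophil major basic protein gene, stood at 767, 189 and 2358 CPM, against 119, 101 and 92.9 CPM in other GMP cells (log2 change 2.49, edgeR adjusted p = 1.15e-75, and 0.413 with a robust prior). The 8 eosinophil genes summed to 910, 336 and 2987 CPM in cells with at least 2 members, but to 46.2, 296 and 23.9 CPM in those with at least 3, against 137, 108 and 116 CPM in cells with none. In the list for basophils and mast cells 4 of 6 genes rose and 1 fell (1 and 1 with a robust prior). Its 6 genes summed to 1003, 308 and 1404 CPM in cells with at least 2 members, but to 64.7, 92.4 and 23.9 CPM in those with at least 3, against 254, 335 and 272 CPM in cells with none. Of the 34, 39 and 13 cells with at least 2 members, 3, 2 and 2 had at least 5 Prg2 UMIs after thinning. Itga2b, one of the members that chose the cells, was itself higher in such Prg2-rich cells. The part of these cells in the eosinophil, basophil and mast cell changes was not tested. All 5 monocyte genes were lower, with a median of -1.38. Cells with at least 2 members had fewer UMIs than other GMP cells, with medians of 8004.5, 12055 and 9217 against 10982, 12987 and 15265.

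Car1, which encodes carbonic anhydrase 1 and marks early erythroid cells, was rare in CMP cells with at least 2 members. Car1 stood at 1.32, 4.19 and 0.925 CPM in GMP, 166 CPM in CMP and 65.4 CPM in LMPP. Of 418 CMP cells with at least 2 members, 4 had at least 2 Car1 UMIs, where 27.7 were expected from the 452 such CMP cells (log2 odds ratio -2.79). With at least 2 Car1 UMIs 0.885% of CMP cells had at least 2 members, against 6.49% of the other CMP cells. In LMPP none of 103 cells with at least 2 members was among the 64 cells with at least 2 Car1 UMIs, where 0.885 was expected, and this allows up to 2.91%. In GMP only 2, 17 and 3 cells had at least 2 Car1 UMIs and none had at least 2 members, which is not informative since fewer than 0.1 were expected in each library. Of the 185 Pf4-high CMP cells 1 had at least 2 Car1 UMIs.

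For single members, at 1 UMI or more of each gene, the overlap with Car1 differed between members in CMP. In CMP the interval of the log2 odds ratio lay below 0 for Plek (-1.64, -2.11 to -1.17), Cavin2 (-0.98, -1.85 to -0.11) and Pf4 (-0.71, -1.07 to -0.35). It held 0 for Itga2b, which was found with Car1 in 42 CMP cells where 45.2 were expected (-0.11, -0.59 to 0.36), and for Gp9 (-0.42, -1.03 to 0.19), Gp1bb and Vwf. Over the 3 GMP libraries combined few cells were shared. Itga2b and Car1 were both detected in 6 cells where 1.07 were expected, and Pf4 and Car1 in 4 where 1.11 were expected. Gp9 and Car1 were both detected in 3 where 0.198 were expected, and Plek and Car1 in 3 where 1.93 were expected. Cavin2 and Car1 shared 1 cell where 0.120 was expected, and Gp1bb and Vwf shared none with Car1. Per library, under 1 cell was expected for every pair but Plek and Car1 in replicate 2, at 1.18. Any shared cell then lies above expectation, so the counts per library give no direction. In the combined counts Itga2b, Pf4 and Plek reached 1 expected cell and lay above expectation. They did so on only 6, 4 and 3 cells, too few for a firm direction. In LMPP the intervals held 0 for all 7 members.

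In CMP the members' levels were lower in cells with more Car1. Cells with 0, 1, 2 to 4, 5 to 9 and at least 10 Car1 UMIs (5958, 423, 350, 96 and 6 cells) had 464, 122, 61.8, 35.7 and 33.6 CPM of Pf4. Plek stood at 73.9, 43.1, 11.4, 7.56 and 8.40 CPM and Itga2b at 36.0, 27.9, 19.6, 8.93 and 0 CPM over the same bins, the last of which holds too few cells to place. Gp9 stayed near its level up to 4 Car1 UMIs, with 18.2, 18.1 and 14.7 CPM, and had 4.81 CPM in the next bin. Over these bins the erythroid transcription factor gene Klf1 went the other way, with 12.2, 67.7, 139, 169 and 218 CPM, and Gata1, which both lineages use, had 24.3, 69.0, 114, 115 and 126 CPM. In LMPP, cells with 0 and with 1 Car1 UMI (7283 and 104 cells) had 60.6 and 17.7 CPM of Pf4 and 44.6 and 37.4 CPM of Plek.

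**Figure D4:**
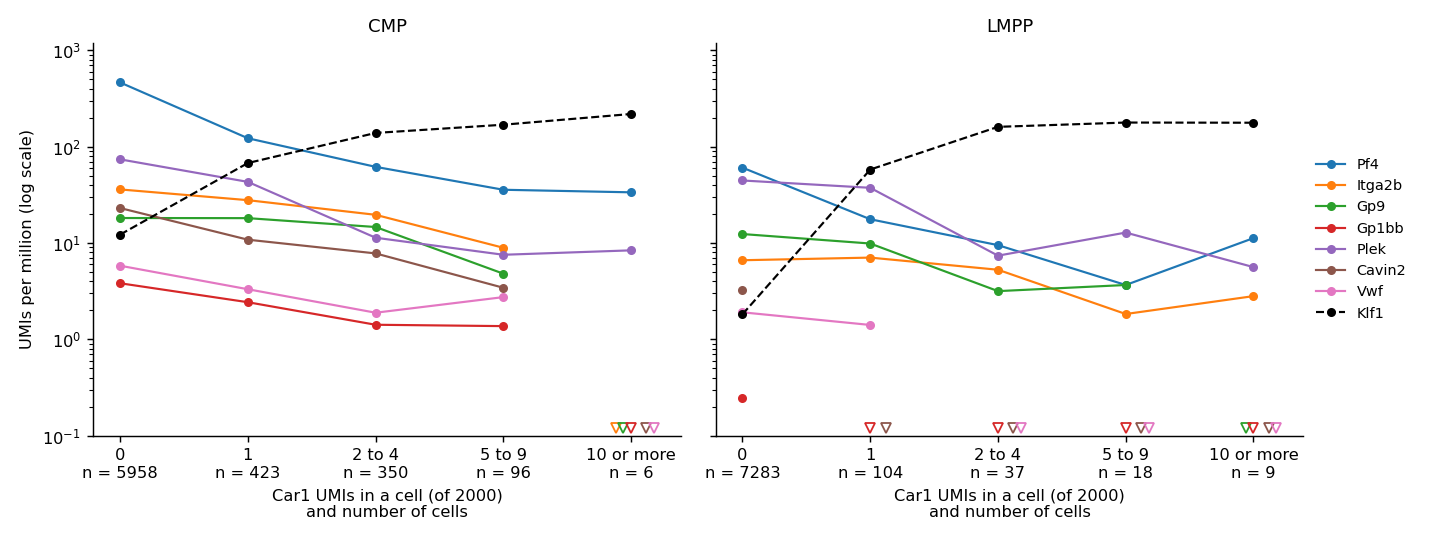
Level (CPM, log axis) of the members and of Klf1 in CMP (left) and LMPP (right) cells grouped by Car1 UMIs after thinning to 2000 UMIs, with the number of cells under each bin; open triangles at the foot mark values of 0. In CMP, Pf4 is at 464 CPM with 0 Car1 UMIs and at 33.6 CPM with 10 or more, whereas Klf1 is at 12.2 and 218 CPM.

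Itga2b was the member with the largest change in Prg2-high cells and the only one called under every alternative. Prg2 stood at 127, 113 and 104 CPM in GMP, 0.0739 CPM (6 UMIs) in CMP and 1.61 CPM in LMPP. At least 5 of 2000 UMIs were Prg2 in 62, 80 and 59 GMP cells, in no CMP cell and in 1 LMPP cell, so the comparison was made within GMP, with library as a block. In these Prg2-high cells Itga2b stood at 94.4, 82.8 and 41.3 CPM, against 5.74, 6.08 and 3.79 CPM in other GMP cells. It was detected in 20.97%, 12.5% and 10.2% of Prg2-high cells, against 1.21%, 1.29% and 0.903% of other GMP cells. The log2 change was 3.38 ± 0.22 (edgeR adjusted p = 2.57e-48, and between 1.0e-57 and 3.7e-07 over 11 alternatives), and it was called in all of them.

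Of 6 members tested 2 were higher in Prg2-high cells and none was lower, beside 22.5% of 14544 genes called, 7.64% higher and 14.9% lower. The second was Gp9, with 1, 7 and 2 UMIs in Prg2-high cells (2.36, 14.5 and 4.85 CPM, against 1.06, 1.34 and 0.999 CPM in other GMP cells). Its change of 2.28 ± 0.69 (edgeR adjusted p = 0.00638) rested on replicate 2, without which the adjusted p was 0.646, in a range of 0.00144 to 0.646. Pf4 stood at 11.8, 37.2 and 0 CPM in Prg2-high cells, against 16.9, 32.5 and 5.60 CPM in other GMP cells, a change of -0.56 ± 0.30 (edgeR adjusted p = 0.183, in a range of 1.47e-41 to 0.778 over 11 alternatives). The sign of Pf4 turned and it was called higher under 2 of these, at 1.27 with doublet calls kept and 1.98 at a minimum of 2 Prg2 UMIs, where 1 cell held most of its UMIs in a library, and both settings raised the members called to 5. Plek had 0.71 ± 0.30 (edgeR adjusted p = 0.0725) and was called under 5 of 11 alternatives. Cavin2 had 6 UMIs and Vwf 3, each in a single cell of replicate 2 (edgeR adjusted p = 0.152 and 0.321), and Gp1bb had 0 UMIs and was too low to test.

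Genes of several other lists also moved in the Prg2-high cells. All 7 eosinophil genes tested were higher (median 7.50; Prg2, one of the list, chose the cells) and so were 5 of 6 basophil and mast cell genes (4 with a robust prior; median 2.76), while 6 of 6 granulo-monocytic (-1.04) and 5 of 5 monocyte genes (-1.19) were lower. Their part in the change of Itga2b was not tested. Of 10 regulators 8 were higher, with a median of 1.08 beside -0.09 for all genes, whereas 1 of 11 other platelet genes tested was higher. Gata1 stood at 33.0, 31.03 and 51.0 CPM in Prg2-high cells, against 2.49, 3.81 and 1.59 CPM in other GMP cells (log2 change 3.40, edgeR adjusted p = 2.64e-24, and 3.42e-07 with a robust prior). Of the other platelet genes Nrgn had 70.8, 53.8 and 48.5 CPM in Prg2-high cells, against 18.0, 21.2 and 12.4 CPM in other GMP cells (log2 change 1.32). Cells with at least 2 members that were also Prg2-high numbered 3, 2 and 2, where 0.258, 0.350 and 0.106 were expected. With under 1 cell expected in each library, any shared cell lies above expectation. Itga2b, itself higher in Prg2-high cells, is also among the members counted. An overlap of the set with Prg2 is therefore not read from these counts. Prg2-high cells had medians of 5035.5, 5198 and 5234 UMIs, against 11021, 13042 and 15306 in other GMP cells. The part of that depth difference in the result was not tested, but detection was compared at 2000 UMIs in every cell. Scaling by total UMIs moved the split of all called genes to 2684 higher and 754 lower, against 1111 higher and 2165 lower, and Itga2b remained higher.

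**Figure D5:**
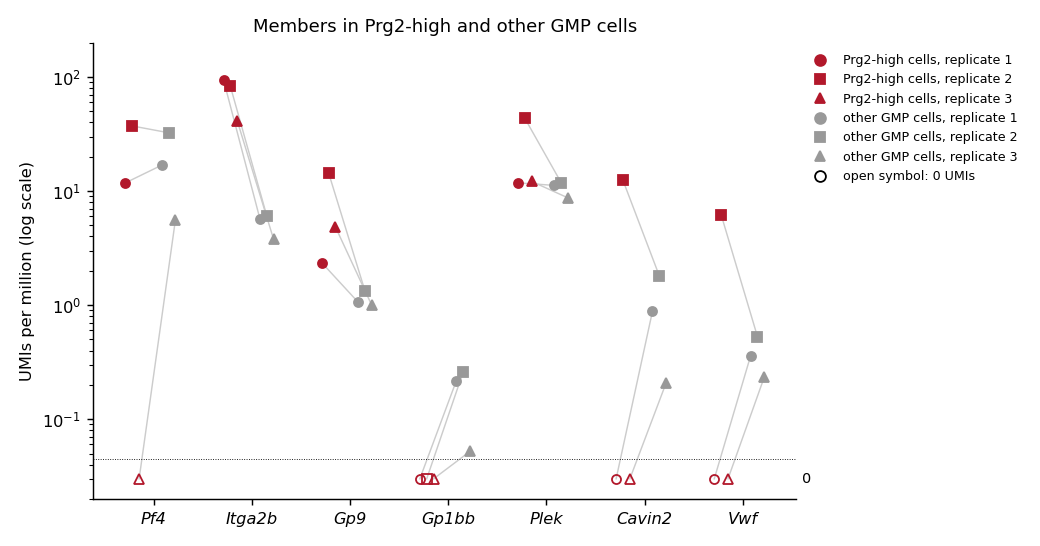
Level (CPM, log axis) of the 7 members in Prg2-high GMP cells and in other GMP cells; symbols are the 3 libraries and open symbols mark 0 UMIs. Itga2b stands at 94.4, 82.8 and 41.3 CPM in Prg2-high cells, against 5.74, 6.08 and 3.79 CPM in other GMP cells, while the points of Pf4 overlap and Gp1bb has 0 UMIs in every Prg2-high group.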

How the data were processed

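The authors deposited UMI counts per gene and barcode for 5 droplet libraries, in matrices that the file headers say were written by Cell Ranger 6.1.1. The submitters' processing notes name Cell Ranger 3.1.0, Seurat 3.1.1 and the mm10 build. How barcodes were kept is not given in the sources used here. The deposited matrices held 112327644, 137141095 and 127387528 UMIs for GMP, 90067195 for CMP and 93770259 for LMPP, on 9510, 9993, 8021, 7389 and 8116 barcodes. All gene identifiers match GENCODE M21.

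Barcodes needed at least 500 genes and 1000 UMIs with at most 10% of UMIs from mitochondria. Doublets called by likeness to simulated ones (2000 variable genes, 30 components, 30 neighbours, 0.8% per 1000 barcodes) were left out, 694, 783 and 503 in GMP, 432 in CMP and 522 in LMPP. Detection was measured after thinning each cell to 2000 UMIs. Odds ratios have 0.5 added to each count and, for pairs of members, were counted only where at least 1 cell was expected to hold both.

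Sums of UMI counts per library went into edgeR 4.0.16 (R 4.3.3, limma 3.58.1), whose quasi-likelihood test used TMM scaling, genes kept by filterByExpr and a prior count of 2. P-values were adjusted over all genes tested by Benjamini and Hochberg's method, at 0.05. CMP and LMPP rest on 1 library each and are assumed to vary like GMP. Within GMP, each library was divided in 2 with library as a block, and the prior degrees of freedom came out infinite, so a robust prior without the legacy option was added after seeing the data. A minimum of 30 cells per library was set for these tests. It left out the test of Car1-positive cells and was lowered to 10 for cells with at least 2 members after the counts were seen. Scripts were tested on simulated data. Other tools were Python 3.11.15, numpy 2.4.6, scipy 1.17.1, pandas 2.3.3, scikit-learn 1.9.0 and, as an alternative, DESeq2 1.42.0.

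The members and lists were chosen with earlier results of these data known. Named were all members, Car1 and Prg2, the 10 genes most like the members in CMP, the 10 largest changes in each direction in GMP cells with at least 2 members (past the threshold, on one side in all 3 libraries, at least 50 CPM, predicted and mitochondrial genes left out), and up to 4 genes of each list and comparison (the 2 with the largest change and the 2 with the highest mean). A few genes that this rule names are not reported here. The alternatives were DESeq2 size factors and Wald test, total UMIs, no low-count filter, all barcodes, doublet calls kept, cells with at least 3 members left out, only the groups compared, no library block, thinning to 1000 and 4000 UMIs, lower UMI minimums, Plek left out and each GMP replicate left out.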

Additional observations from a re-analysis of the deposited data

How the results depend on the processing

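Of 1038 values recomputed under an alternative, 943 kept their direction and side of the threshold or stayed within their spread. For the 7 members against CMP no alternative ended a call. All genes called against CMP ranged from 5143 to 9780 when 1 GMP replicate was left out. Members called against LMPP ranged from 3 to 5 (5 without replicate 2 and 5 without replicate 3). Signs against LMPP reversed under total UMIs for Itga2b (-0.24), Gp1bb (-0.41), Tmem40 (-0.58) and Runx1 (-0.34), and with a replicate left out for Gp1bb (-0.01 without replicate 1, -0.19 without replicate 2, 0.60 without replicate 3) and Tmem40 (from -0.0123 without replicate 1 to 0.109 without replicate 3). By construction, scaling by total UMIs shifts all genes one way.

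In Prg2-high cells 5 members were called with doublet calls kept and 5 at a minimum of 2 Prg2 UMIs, and between 1 and 3 with a replicate left out (1 without replicate 2). There Pf4 reversed to 1.27 with doublet calls kept, where 64 of its 69 UMIs in replicate 1 came from 1 cell, and to 1.98 at a minimum of 2 Prg2 UMIs, where 236 of 256 in replicate 2 came from 1 cell. With a replicate left out Plek ranged from -0.15 to 1.04, Cavin2 from -4.00 to 2.15 and Vwf from -3.17 to 2.54, each lowest without replicate 2 and highest without replicate 1 (without replicate 2 the Prg2-high cells held 0 UMIs of Cavin2 and Vwf, so those values follow the prior count). Under total UMIs Tmem40 reversed (0.21). In GMP cells with at least 2 members 998 genes were called without the library block, 828 by DESeq2 and 698 to 1321 with a replicate left out, against 1552, and the cause was not tested. The shares of cells with at least 2 members followed depth, with 0.168% (GMP mean), 3.08% (CMP) and 0.506% (LMPP) at 1000 UMIs and 0.681%, 12.9% and 3.90% at 4000 UMIs. Without Plek they were 0.194%, 3.98% and 0.631%. The log2 odds ratio with Car1 in CMP was -1.41 at 4000 UMIs. At 1000 UMIs no Prg2-high cell of GMP replicates 2 and 3 had at least 2 members, against 3 in replicate 1.

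No paired analysis was possible because GMP, CMP and LMPP share fewer than 2 replicate numbers. The test of Car1-positive GMP cells was not run, with 2, 17 and 3 such cells, nor was one of cells with at least 3 members, with 9, 15 and 3. Depth limits Gp1bb, Vwf and Cavin2 in GMP and every count of pairs with fewer than 5 cells. CMP and LMPP have 1 library each, so differences between them cannot be told apart from differences between samples.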

Other observations

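Hlf, a transcription factor gene of stem and multipotent cells, was used to divide LMPP and CMP cells, which gives counts of cells of 1 library each and no test. In LMPP, Gp9, Plek and Pf4 were detected in a larger share of the Hlf-positive cells, with intervals that did not overlap for Plek and Pf4. Gp9 was detected in 2.93% of 4367 Hlf-positive cells (2.45 to 3.48) and 2.04% of 3084 Hlf-negative cells (1.57 to 2.61), Plek in 10.3% (9.42 to 11.2) and 8.04% (7.11 to 9.06), and Pf4 in 5.24% (4.60 to 5.95) and 3.70% (3.06 to 4.42). The level of Pf4 had the opposite order to its detection, with 43.7 CPM in Hlf-positive and 75.1 CPM in Hlf-negative LMPP cells. Cavin2 had the opposite order, with 0.183% of Hlf-positive cells (0.0791 to 0.361) and 0.519% of Hlf-negative cells (0.297 to 0.841), and those intervals overlap. Vwf was detected in 0.229% of Hlf-positive and 0.227% of Hlf-negative LMPP cells.

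In CMP, Pf4 was detected in 12.6% of 841 Hlf-positive and 12.6% of 5992 Hlf-negative cells. Its level was 307 CPM in Hlf-positive and 428 CPM in Hlf-negative CMP cells. Cavin2 was detected in 1.07% of Hlf-positive CMP cells (0.490 to 2.02) and 2.57% of Hlf-negative ones (2.18 to 3.003), which do not overlap. Gp1bb was detected in 0 of 841 Hlf-positive cells, which allows up to 0.357%, and 0.768% of Hlf-negative cells (0.563 to 1.02). Car1 was detected in 4.64% of Hlf-positive and 14.0% of Hlf-negative CMP cells.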
